A study of Mus musculus with 26 samples.

Results

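ZFP57 peaks that occur in both deposited peak lists were examined in mouse ES cells, the pluripotent cells derived from early embryos. One list belongs to the C57BL/6J lines and the other is named for the C57BL/6J X 129aa hybrid lines. A peak was counted as present in both when its chromosome, start and end were identical in the lists, and 743 of the 1423 peaks of the C57BL/6J list met this rule (52.2%). The other 680 peaks were in the C57BL/6J list alone. The hybrid list held no interval outside these 743. Its labels link it to H3K9me3 libraries of the hybrid lines, and how it was made is not given in the sources used here. Presence in both lists was therefore treated as a property of the list, and not as a second detection of the same site.

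All C57BL/6J samples were male ES cells, derived and kept in medium with LIF and the inhibitors of ERK and GSK3 signalling. ZFP57 ChIP-seq had 3 WT and 2 ZFP57 KO libraries, and RNA-seq had 3 WT and 2 ZFP57 KO libraries. The KO was zygotic, a homozygous disruption of coding exons for the KRAB domain and the zinc fingers, which leaves the maternal supply of the egg in place. The hybrid lines were WT or maternal and zygotic ZFP57 KO. Peaks carry positions only, without score, read number or replicate, and the depth of the libraries is unknown.

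ZFP57 is a KRAB zinc finger protein, a class of DNA-binding repressors that recruit the corepressor KAP1 and, through it, the H3K9 methyltransferase SETDB1. It binds the hexanucleotide TGCCGC when the CpG in it is methylated. ZFP57 is best known for keeping DNA methylation at imprinting control regions (ICRs), which silence genes on the chromosome inherited from one parent. IAPs are young retrotransposons of the mouse whose long terminal repeats (LTRs) act as promoters and are silenced by the same machinery in ES cells.

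The stretches below come from peaks at ICRs and show how TGCCGC was spaced within them. They were read from the plus strand of GRCm38 (mm10), and capitals mark TGCCGC or its reverse complement. Stretches were placed outside annotated untranslated parts of mRNAs.
Snurf and Snrpn, chr7:60004398-60004547: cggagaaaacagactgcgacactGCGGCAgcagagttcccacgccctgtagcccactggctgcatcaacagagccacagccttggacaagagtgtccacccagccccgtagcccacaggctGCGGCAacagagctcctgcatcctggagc
Mest, chr6:30737576-30737725: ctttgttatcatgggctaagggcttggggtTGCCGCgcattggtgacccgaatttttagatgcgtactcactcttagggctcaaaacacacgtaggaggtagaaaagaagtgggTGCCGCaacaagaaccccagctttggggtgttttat
Nnat, chr2:157560309-157560428: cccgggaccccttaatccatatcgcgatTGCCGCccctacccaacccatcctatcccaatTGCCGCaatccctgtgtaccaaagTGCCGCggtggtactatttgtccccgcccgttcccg
IG-DMR upstream of Meg3, chr12:109528339-109528458: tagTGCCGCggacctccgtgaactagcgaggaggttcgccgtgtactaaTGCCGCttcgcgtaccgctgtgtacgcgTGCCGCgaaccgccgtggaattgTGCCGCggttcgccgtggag
Peg3, chr7:6729229-6729348: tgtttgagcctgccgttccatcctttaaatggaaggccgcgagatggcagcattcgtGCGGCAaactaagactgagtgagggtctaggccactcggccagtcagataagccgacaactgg
H19, chr7:142580237-142580356: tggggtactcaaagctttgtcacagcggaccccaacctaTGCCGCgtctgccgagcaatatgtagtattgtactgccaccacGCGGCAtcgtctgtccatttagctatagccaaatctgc

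The IG-DMR stretch held 4 copies in 120 bases and 20 CpGs, and the *Nnat* stretch held 3 copies in the same length. The *Peg3* stretch held 1 copy. The complete peaks held 10 copies at *Snurf* and *Snrpn*, 12 at *Mest*, 7 at the IG-DMR, 6 at *Nnat*, 3 at *H19* and 2 at *Peg3*.

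Most of the peaks of both lists lay on IAPs, and the same short stretch recurred in them. One peak is shown for each of the 3 IAP families with most such peaks, followed by a non-IAP LTR and by the 3 commonest stretches of 20 bases around TGCCGC, each written in the direction in which it reads TGCCGC.
IAPLTR2a2_Mm, chr1:5567319-5567378: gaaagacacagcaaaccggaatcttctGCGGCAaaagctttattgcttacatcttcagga
IAPLTR2_Mm, chr1:17524418-17524477: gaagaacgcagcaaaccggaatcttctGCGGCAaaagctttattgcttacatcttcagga
IAPLTR1a_Mm, chr1:64960335-64960394: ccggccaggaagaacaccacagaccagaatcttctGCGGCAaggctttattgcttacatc
RLTR13B1, chr1:36720756-36720815: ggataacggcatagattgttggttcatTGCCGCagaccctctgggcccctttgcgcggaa
Recurrent stretch A: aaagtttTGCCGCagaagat
Recurrent stretch B: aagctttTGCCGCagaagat
Recurrent stretch C: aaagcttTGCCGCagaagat

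Stretch A occurred in 149 peaks of both lists, B in 129 and C in 92. Together they were found in 367 of the 743 peaks (49.4%, Wilson 95% interval 45.8 to 53.0%), against 277 of the 680 peaks of the C57BL/6J list only (40.7%, 37.1 to 44.5%). They differ in a few bases upstream of the hexanucleotide and share all those downstream of it. IAPLTR2_Mm was the commonest family among peaks with A, IAPLTR2a2_Mm among those with B and IAPLTR1_Mm among those with C. IAPs as a whole carried 67.3% of the peaks of both lists and 55.0% of the others. A difference in the stretches beyond that IAP share was not tested. A further stretch, around a copy preceded by G rather than T, occurred in 24 peaks of both lists and 10 others, mostly on IAPEY2_LTR.

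Peaks off the IAPs showed other arrangements, of which 3 are given here because their copies are repeated.
Nefm intron, chr14:68121633-68121752: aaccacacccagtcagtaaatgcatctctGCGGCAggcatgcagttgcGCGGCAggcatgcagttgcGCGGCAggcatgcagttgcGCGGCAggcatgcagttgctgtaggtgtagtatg
Zfp629 last exon, chr7:127611651-127611770: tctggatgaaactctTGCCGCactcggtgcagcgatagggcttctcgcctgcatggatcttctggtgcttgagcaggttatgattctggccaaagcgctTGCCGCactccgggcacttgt
Arhgap10 intron, chr8:77448909-77449108: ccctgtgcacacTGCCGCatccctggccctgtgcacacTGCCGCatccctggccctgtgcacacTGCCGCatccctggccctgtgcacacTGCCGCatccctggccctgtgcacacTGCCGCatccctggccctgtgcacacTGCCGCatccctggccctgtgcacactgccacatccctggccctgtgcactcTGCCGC

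In the intron of *Nefm*, 4 copies stood on the minus strand in a short tandem repeat. The peak in an intron of *Arhgap10* held 19 copies, the most among the peaks of both lists, in a tandem repeat in which most units carry TGCCGC. Part of it overlapped a SINE of the family B4A. In the last exon of *Zfp629* the copies lay in sequence that encodes zinc fingers.

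TGCCGC was present in most peaks of both lists, with a share close to that of the remaining peaks. It occurred in 680 of the 743 peaks (91.5%) and in 629 of the 680 others (92.5%). The difference was -0.98 percentage points, with a Newcombe 95% interval from -3.81 to 1.88. In intervals of equal width starting 2000 bp upstream, the hexanucleotide occurred in 6.46% and 4.56%. Searches covered both strands, and these and all further intervals describe counting error alone, since neighbouring peaks share their sequence and are not independent. The copy nearest to the centre of the peak lay a median of 41 bp from it, against 38.5 bp in the other peaks.

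Peaks with many copies were more frequent among the peaks of both lists. At least 4 copies were found in 29 peaks of both lists (3.90%) and in 6 of the others (0.882%), a difference of 3.02 percentage points (1.46 to 4.73). Of the 29 peaks, 11 were at ICRs, and without the ICR peaks the shares were 2.49% and 0.882%, a difference of 1.61 points (0.23 to 3.10). At a minimum of 2 copies the shares were 25.3% and 21.8%, with an interval of the difference that included 0 (-0.88 to 7.92). Of the 29 peaks, 23 lay outside the listed elements. The richest peak of all, with 37 copies, was in the C57BL/6J list only. The limit of 4 copies was set after the counts were seen.

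No TGCCGC was found in 63 peaks of both lists. Of these, 36 lay on LTR elements other than IAPs, 13 on IAPs and 9 on no listed element. On LTR elements other than IAPs, 68 of 104 peaks of both lists had the hexanucleotide (65.4%), against 134 of 155 others (86.5%), a difference of -21.1 points (-31.6 to -10.5). Without the peaks on RLTR13 families, the shares were 57.1% and 71.8%, with an interval of the difference that included 0 (-28.7 to 0.48). On IAPs the shares were 97.4% and 97.3%. Elements of the ETn group, which are non-autonomous relatives of the MusD retrotransposon, carried 16 peaks of both lists, of which 2 had TGCCGC, and 8 of the others, of which also 2 had it. The internal part of ETn elements (ETnERV-int) alone carried 15, with 1 copy-bearing peak among them. The peak at the ICR of *Zrsr1*, a maternally methylated gene start in an intron of *Commd1*, also held none in its 547 bp.

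Bound elements differed between the lists. IAPs carried 500 of the 743 peaks of both lists (67.3%) and 374 of the other 680 (55.0%), a difference of 12.3 percentage points (7.23 to 17.3). With at least 50% of the peak inside the IAP, the shares were 53.8% and 46.0%, a difference of 7.81 points (2.61 to 12.9). Other LTR elements carried 104 (14%) and 155 (22.8%), a difference of -8.80 points (-12.8 to -4.78). Without the peaks on the RLTR13 families described below, other LTRs held 11.6% and 11.9%, a difference of -0.29 points (-3.85 to 3.17). IAPs then held 69.2% and 62.8%, a difference of 6.40 points (1.27 to 12). These families were grouped after their low share had been seen, so leaving them out had to shrink the difference in other LTRs. LINEs carried 15 peaks of both lists, SINEs 13 and DNA transposons 2, and 109 (14.7%) overlapped no listed element, against 119 (17.5%) of the others. For this last class the interval of the difference included 0 (-6.68 to 0.99).

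**Figure D1:**
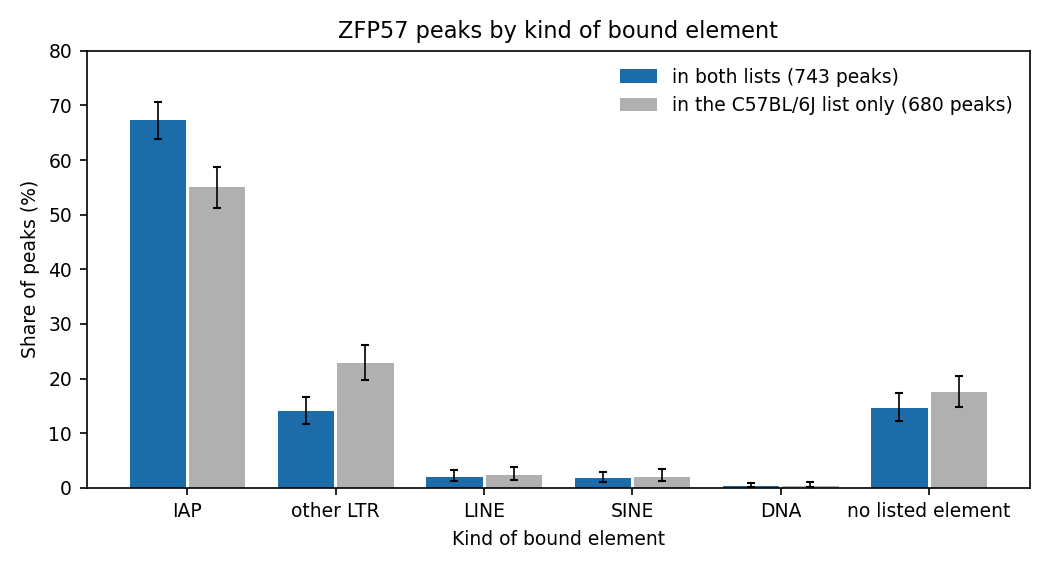
Share of peaks (percent, vertical axis) by kind of bound element, for the 743 peaks of both lists (blue) and the 680 peaks of the C57BL/6J list only (grey). Bars are shares and error bars are Wilson 95% intervals. IAPs hold 67.3% of the blue and 55.0% of the grey peaks, and the order is the opposite for other LTRs.

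Elements were those of the published list of ZFP57-bound elements, from which positions and family names were used. A total of 80 families had a peak of both lists. The largest was IAPLTR2a2_Mm, with 116 of its 185 peaks in both lists (62.7%, 55.5 to 69.3%), and IAPLTR1a_Mm had 61 of 88 (69.3%, 59.0 to 78.0%). IAPLTR2_Mm had 77 of 131 and IAPLTR2b 60 of 106. The share was lower in IAPEY_LTR, with 33 of 74 (44.6%), in IAPLTR2a, with 36 of 77 (46.8%), and in IAP1-MM_I-int, with 3 of 10 (30%). The intervals of these families included the share over all peaks. Named by their prefix, IAPLTR2 elements had 289 of 499 peaks in both lists (57.9%), IAPLTR1 elements 96 of 156 (61.5%) and IAPEY elements 88 of 166 (53.0%).

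Elements of the RLTR13 families, LTRs of the ERVK class, stood at the other end. They carried 20 peaks of both lists and 84 of the others, so that 19.2% of the RLTR13 peaks were in both. RLTR13B1 had 9 of 33, RLTR13G 4 of 14 and RLTR13C2 2 of 20. All 20 RLTR13 peaks of both lists held TGCCGC, and so did 83 of the 84 others. RLTR6-int, the internal part of a family related to murine leukaemia virus, had 10 of 12 peaks in both lists. These families were grouped after their values had been seen and were not tested.

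**Figure D2:**
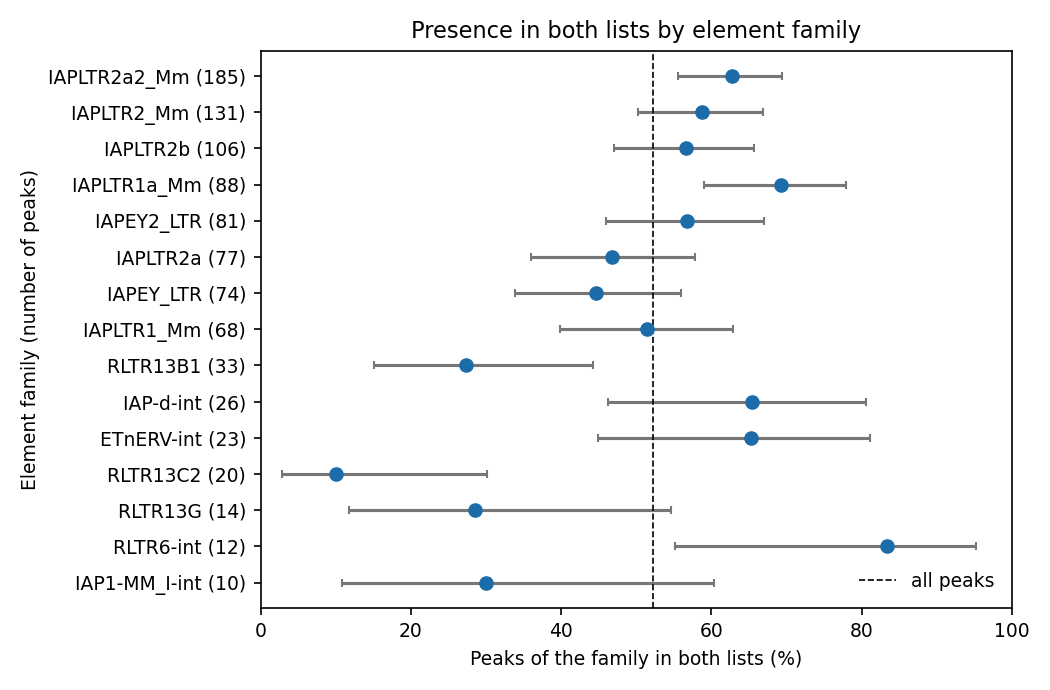
Share of peaks in both lists (percent, horizontal axis) for the 15 element families with at least 10 peaks, with the number of peaks in brackets. Points are shares, bars are Wilson 95% intervals, and the dashed line is the share over all peaks, 52.2%. The RLTR13 families lie left of the line and RLTR6-int and IAPLTR1a_Mm lie right of it.

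The peaks of both lists were slightly wider, with a median of 306 bp (exact 95% interval 295 to 316) against 274.5 bp (265 to 285). Their range was 180 to 2002 bp. They held more soft-masked sequence, in which the reference marks repeats. At least 50% of the length was soft-masked in 513 peaks (69.0%) and in 421 of the others (61.9%), a difference of 7.13 points (2.19 to 12). A median of 72.3% of the peak lay inside a listed element (68.3 to 76.9%), against 61.4% (58.7 to 65.7%), and among the peaks on such an element 85.9% (77.5 to 91.6%) against 71.7% (67.4 to 75.9%). Among IAP peaks alone, the midpoint was inside the IAP in 80.2% and 83.7%, with an interval of the difference that included 0 (-8.53 to 1.73).

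CpG density was higher as well. The median was 3.77 CpGs per 100 bp (3.62 to 3.98) in the peaks of both lists and 3.17 (3.01 to 3.33) in the others, and at least 5 CpGs per 100 bp were found in 28.4% and 16.2%, a difference of 12.2 points (7.92 to 16.4). Off the listed elements the medians were 4.02 (3.48 to 4.42) and 2.72 (2.09 to 3.26), and without the ICR peaks described below the first was 3.5 (3.0 to 4.12), with overlapping intervals. On LTR elements other than IAPs they were 2.71 (2.42 to 3.09) and 2.12 (1.95 to 2.26). On IAPs they were 4.02 (3.82 to 4.27) and 3.73 (3.52 to 3.92), with overlapping intervals, and at least 5 CpGs per 100 bp were found in 32% and 21.9% of the IAP peaks, a difference of 10.1 points (4.12 to 15.8). Within IAPLTR2a2_Mm the medians were 5.02 and 3.95, whereas within IAPLTR1a_Mm they were 3.23 and 3.26. CpG density was compared with other results of these data known.

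**Figure D3:**
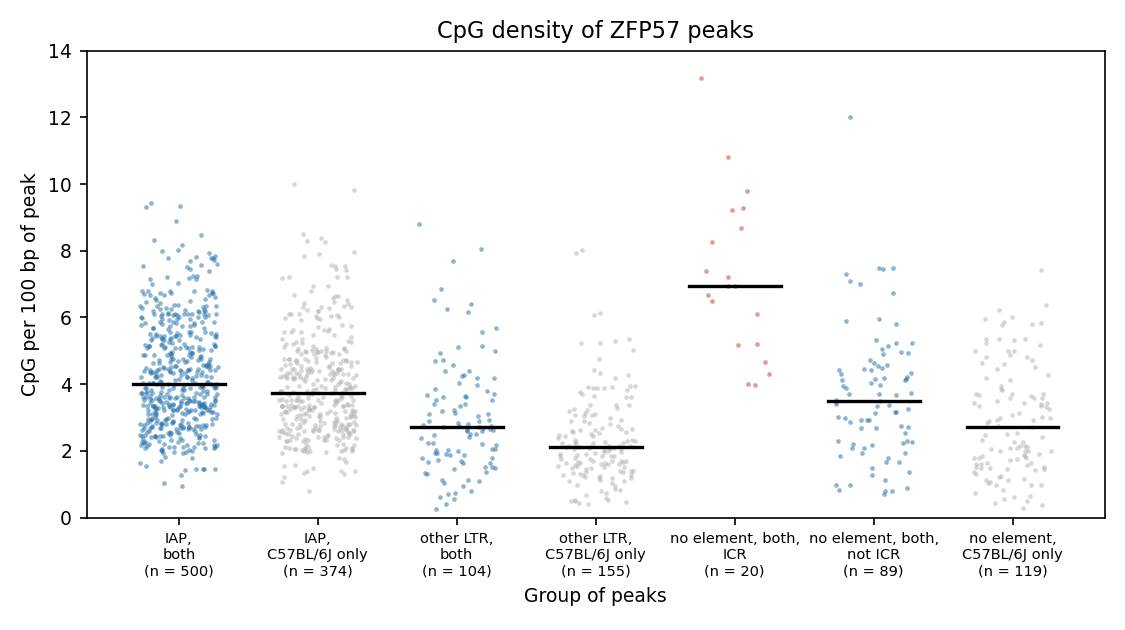
CpGs per 100 bp of peak (vertical axis) for 7 groups of peaks, by kind of element and list, with ICR peaks in red. Each point is 1 peak and the black line is the group's median. The ICR peaks have a median of 6.94, above the medians of all other groups drawn.

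The peak nearest to each bound ICR anchor was in both lists. Of 24 anchor genes standing for ICRs, 21 had a ZFP57 peak within the window (20 kb, or 35 kb for paternally methylated ICRs), and in each case it was a peak of both lists. These were 18 of 21 maternally methylated and 3 of 3 paternally methylated ICRs, with 20 distinct peaks, since *Nespas* and *Gnas* share one. A peak of the C57BL/6J list only occurred in the window of 1 anchor, *H19*, beside the peak of both lists. *Gpr1*, *H13* and *Slc38a4* had no listed peak in the window.

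The 20 ICR peaks were wider and richer in CpG than the rest of the peaks of both lists. Their median width was 503 bp (408 to 717), with a median of 4 copies of TGCCGC, and their median CpG density was 6.94 per 100 bp (5.19 to 8.68). The 89 other peaks of both lists without an element had a median width of 351 bp (334 to 372), 1 copy and 3.5 CpGs per 100 bp (3.0 to 4.12). CpG density of the ICR peaks ranged from 3.98 at *H19* to 13.2 at *Grb10*, which encodes a growth-restraining adaptor of the insulin receptor. *Rasgrf1*, with a paternally methylated ICR, had the second highest value, 10.8, in a peak of 259 bp with 5 copies. By position, 13 of the 20 were within 1000 bp of a gene start, 3 were intronic, 3 intergenic and 1 exonic.

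Gene starts were rare among the peaks of both lists outside ICRs. Of the 743 peaks, 18 (2.42%) had their midpoint within 1000 bp of a start, and 13 of them were the ICR peaks already counted. The other 5 were at *Cd59a*, which encodes a complement inhibitor, *Bglap3* of the osteocalcin family (on IAP-d-int), the KRAB zinc finger gene *Gm15446* (on IAPLTR2a2_Mm), *Pnpla1* (on MTD) and *Esp8* (on RLTR13B1). Starts and exons were those of curated RefSeq transcripts, which leaves out predicted models such as that of the double homeobox gene *Duxf3*, overlapped by a peak of both lists on chromosome 10. Exons held 36, introns 188 and intergenic sequence 501. A gene span was overlapped by 251 peaks (33.8%) and by 211 of the others (31.0%), with an interval of the difference that included 0 (-2.12 to 7.59). Among peaks on no listed element, the shares were 68.8% and 52.1%, a difference of 16.7 points (3.99 to 28.6), and without the ICR peaks 65.2% and 52.1%, with an interval of the difference that included 0 (-0.49 to 25.8).

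Zinc finger genes, taken by symbol (Zfp, Zscan, Zkscan, Zbtb, Zim or Znf), held 27 peaks of both lists within their span (3.63%, 2.51 to 5.24%), against 9 others (1.32%, 0.698 to 2.50%), a difference of 2.31 points (0.69 to 4.03). Of the 27, 10 lay in 1 run of peaks on chromosome 4 that is described with the chromosomes, and without that run the share was 17 of 726 (2.34%), with an interval of the difference that included 0 (-0.44 to 2.53). In last exons, where such genes encode their finger arrays, 13 peaks of both lists were found, 7 of them in zinc finger genes, namely in *Zfp600*, *Zfp11*, *Zfp787*, *Zfp629*, *Zfp13* and, with a pair of peaks, *Zfp180*. The others were in *Dusp27*, *Rdh9*, *Rreb1*, *Tmem167*, *Nrros* and *Ezr*, of which *Rreb1* also encodes a zinc finger protein under another symbol. Of the peaks of the C57BL/6J list only, 18 were in last exons and 6 of these in zinc finger genes. The widest peak of all, 2002 bp with 5 copies of TGCCGC, covered the last exon of *Zfp11* at chr5:129656570-129658571. Among the peaks of both lists, the next widest were 1665 bp on an IAPLTR2b near *Dhrs7*, 1529 bp at the IG-DMR, 1495 bp between genes, nearest to *Resf1*, and 1494 bp at *Mest*.

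Peaks of both lists were unevenly spread over the genome. On chromosome 16, 41 of 58 peaks were in both lists (70.7%, 58.0 to 80.8%), and on chromosome 13, 57 of 86 (66.3%, 55.8 to 75.4%). The lowest shares of the autosomes were on chromosome 14, with 19 of 57 (33.3%, 22.5 to 46.3%), and on chromosome 17, with 20 of 52 (38.5%, 26.5 to 52.0%). The intervals of these 4 chromosomes alone did not include 52.2%, among 21 chromosomes compared. Chromosome X had 4 of 12 peaks in both lists and chromosome Y 0 of 1. X and Y together held 0.538% of the peaks of both lists and 1.32% of the others, with an interval of the difference from -2.0 to 0.26.

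**Figure D4:**
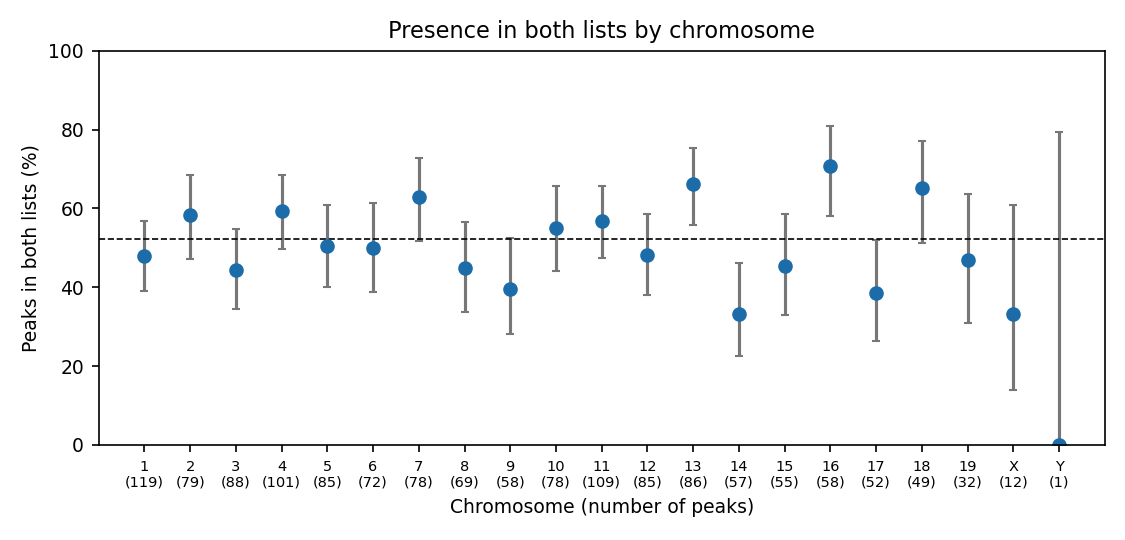
Share of peaks in both lists (percent, vertical axis) for each chromosome, with the number of peaks in brackets. Points are shares, bars are Wilson 95% intervals, and the dashed line is the share over all peaks, 52.2%. Chromosomes 13 and 16 lie above the line and 14 and 17 below it with their whole intervals.

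Close neighbours tended to have the same status. Among 149 pairs of adjacent peaks no more than 10 kb apart, 88 had both peaks in both lists, 27 had neither and 34 had 1, so that 77.2% had the same status (69.8 to 83.2%). The shares of the lists alone would give 50.1%. At 10 to 100 kb it was 57% of 93 pairs, and beyond 1 Mb 54.7% of 666. Of the close pairs, 101 were IAP next to IAP, with a median gap of 2733 bp. The longest run of peaks of both lists spanned 34.7 Mb and 18 peaks on chromosome 13.

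A denser run covered 2.20 Mb of chromosome 4, with 17 consecutive peaks at chr4:145633690-147833731. It lies in a cluster of KRAB zinc finger genes, and its nearest genes include *Zfp600*, *Zfp933*, *Zfp978*, *Zfp982* and *Zfp984*. IAPs carried 12 of the 17 peaks, other LTRs 4, and 1 was on no element, in the last exon of *Zfp600*. TGCCGC was present in 12 of them. Genes in this cluster are near-identical copies, and reads may not be assignable to single copies.

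To ask how genes near these peaks behaved without ZFP57, their RNA levels were compared between ZFP57 KO and WT cells. *Zfp57* itself measured 75.9, 72.3 and 70.6 FPKM in WT and 19 and 21.6 FPKM in KO libraries, and the KO deletes part of the coding sequence only. ES cell markers summed to 986 to 1016 FPKM in WT and 1073 to 1150 FPKM in KO, with 5 of 10 higher (18.8% of all genes tested were higher) and 1 lower (22.3%). The 5 primitive endoderm and 5 feeder markers were each below 1 FPKM in every library. Of these, *Sox7*, a primitive endoderm factor, measured 0.09, 0.15 and 0.11 FPKM in WT and 0.90 and 0.48 FPKM in KO (adjusted p = 0.00408), and the primitive endoderm sum was 0.62 to 0.68 FPKM in WT and 0.85 to 1.31 FPKM in KO. Of 5 trophoblast markers, *Eomes* measured 0.51, 0.60 and 0.38 FPKM in WT and 2.13 and 2.40 FPKM in KO (adjusted p = 0.000801), and *Tfap2c* fell. The summed trophoblast markers stood at 15.8 to 17.9 FPKM in WT and 13.6 to 15.6 FPKM in KO, and the part of these markers in the results on genes was not tested. In bulk RNA, fewer expressing cells and less RNA per cell cannot be told apart.

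Within 20 kb of a peak of both lists lay 558 genes of the table, of which 396 had a mean of at least 0.1 FPKM and were tested. Of these, 180 passed an adjusted p of 0.05 (45.5%, 40.6 to 50.4%), against 41.1% of all 14612 genes tested. In KO, 76 rose (19.2%, background 18.8%) and 104 fell (26.3%, background 22.3%). With each chromosome's median change subtracted, 77 rose and 89 fell (41.9% passed, against 36.2% of all genes). Without the genes of chromosome 11, 76 rose and 80 fell of 366 (42.6% passed, against 37.8%). The median log2 fold change was -0.03, against -0.01 over all genes. Near peaks of the C57BL/6J list only, 145 of 333 genes passed (43.5%). The share near peaks of both lists was thus close to the background.

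The called genes are given next by where the peak lay, beside the 41.1% of all genes (18.8% higher and 22.3% lower). Differences between these shares were not tested. Of 176 genes whose span held a peak of both lists, 92 passed (52.3%, 44.9 to 59.5%), 47 higher (26.7%) and 45 lower (25.6%). Of 220 genes at 1 bp to 20 kb, 88 passed (40%), 29 higher (13.2%) and 59 lower (26.8%). Of 38 genes whose nearest such peak was at an ICR, 24 passed (63.2%, 47.3 to 76.6%), 17 higher (44.7%) and 7 lower (18.4%). Their median log2 fold change was 0.36. Where the peak was on neither an element nor an ICR, 14 were higher (15.6%) and 16 lower (17.8%) of 90 (33.3%). Where it was on an IAP, 34 were higher (16.7%) and 57 lower (28.1%) of 203 (44.8%). Chromosome 11 was lower as a whole in KO, with a median log2 fold change of -0.47 over its 1224 tested genes. Of those 1224 genes, 67.4% fell and 2.7% rose. Of the 30 genes near these peaks there, 21 fell (70%) and none rose, with a median of -0.49. After subtracting each chromosome's median, 5 of the 30 were lower and 6 higher, against 223 lower and 212 higher of the 1224.

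Of 27 tested imprinted genes of the list near peaks of both lists, 13 rose in KO (48.1%, background 18.8%), 6 fell (22.2%, background 22.3%) and 8 did not pass. Their median log2 fold change was 0.38. The choice of these genes was made with earlier results known. *Meg3*, a maternally expressed long non-coding RNA, measured 3.52, 2.91 and 2.34 FPKM in WT and 15.0 and 12.1 FPKM in KO libraries. The fitted log2 fold change of *Meg3* was 2.18 ± 0.18 (SE, adjusted p = 0.000575). Its KO values lay above all WT values, a condition of the rule for the 12 highest genes. *Peg10*, an imprinted gene derived from a retrotransposon, measured 3.07, 3.37 and 2.55 FPKM in WT and 7.18 and 9.04 FPKM in KO, a log2 fold change of 1.41 ± 0.15.

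*Mest*, a paternally expressed gene of the hydrolase family, went from 9.99, 9.27 and 9.72 FPKM to 17.8 and 15.5 FPKM (0.78 ± 0.07). *Plagl1*, an imprinted zinc finger factor, went from 25.3, 20.1 and 23.3 FPKM to 36.1 and 40.7 FPKM (0.75 ± 0.10). None of these ranges overlapped. *Fkbp6*, *Nespas*, *Peg3*, *Snrpn*, *Snurf* and *Impact* also rose, by 0.54 to 0.81 on the log2 scale, and *Kcnq1ot1* by 0.38, *Sgce* by 0.87 and *Blcap* by 0.22. *Sgce*, below 1 FPKM in all libraries, did not pass with the chromosome medians subtracted (0.70, adjusted p = 0.0816) or without WT replicate 1, WT replicate 3, KO replicate 1 or KO replicate 2 (adjusted p = 0.0802 to 0.175). *Snrpn* and *Snurf* share transcripts, and *Nespas* is antisense to *Gnas*, so that reads could be assigned to either gene.

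Of the imprinted genes that fell, *Usp29* next to *Peg3* had the largest change, from 1.11, 1.13 and 1.41 FPKM in WT to 0.47 and 0.37 FPKM in KO (-1.34 ± 0.17, adjusted p = 0.00196). *Igf2r*, the growth-limiting receptor for IGF2, fell by 0.49, and *Airn*, the antisense RNA that overlaps it, fell by 0.87 at levels of 0.06 to 0.26 FPKM. *Airn* reached the minimum mean of 0.1 FPKM only through the WT libraries (mean 0.237 FPKM, against 0.085 FPKM in KO). *Inpp5f*, a phosphoinositide phosphatase, fell by 1.19, also below 0.5 FPKM. *Zrsr1* and *Commd1* on chromosome 11 fell by 0.32 and 0.47. With the chromosome medians subtracted, *Zrsr1* turned to 0.15 (adjusted p = 0.149) and *Commd1* to 0.00. *Grb10*, also on chromosome 11, did not pass (0.44, adjusted p = 0.179), but stood at 0.91 (adjusted p = 0.0262) with the chromosome medians subtracted and at 0.65 (adjusted p = 0.0478) without WT replicate 2. *Nap1l5*, *Peg13*, *H19*, *Nnat* and *Gnas* did not pass, and *Cdh15* and *Rasgrf1* were below the minimum level.

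Outside the imprinted genes, *Nefm*, which encodes the medium neurofilament chain and carries the tandem hexanucleotides shown above in its intron, had the highest log2 fold change of the genes whose mean reached 1 FPKM. It measured 1.76, 1.17 and 0.83 FPKM in WT and 12.9 and 15.6 FPKM in KO libraries (3.46 ± 0.28, adjusted p = 0.00057). *Dcdc2a*, a doublecortin domain gene 4537 bp from a peak, was below 0.06 FPKM in all WT libraries and at 0.98 and 0.77 FPKM in KO (2.87 ± 0.21), and its ratio of mean FPKM was larger than that of *Nefm*. It reached the minimum mean of 0.1 FPKM only through the KO libraries. Other genes that rose with the peak in an intron were *Frmd4b* (1.47 ± 0.10) and *Pros1*, which encodes the anticoagulant protein S (1.35 ± 0.15), both on an IAP LTR, *Cachd1*, a calcium channel accessory gene (0.81 ± 0.08, also on an IAP LTR), and the glutamine transporter *Slc38a1* (0.81 ± 0.05, on no element). *Hmces*, which shields abasic sites in DNA, rose by 0.90 and *Serpinb9b*, a protease inhibitor, by 0.84.

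The largest fall was that of *Aurkc*, a kinase of meiotic chromosome segregation, from 9.68, 9.82 and 11.8 FPKM to 1.09 and 1.06 FPKM (-3.16 ± 0.10, adjusted p = 0.000234). Its nearest peak of both lists, 17310 bp away, lay on an ETnERV-int element and had no TGCCGC. *Bglap3*, with its peak near the gene start on an IAP, fell from 8.66, 7.74 and 9.89 FPKM to 3.06 and 1.79 FPKM (-1.85 ± 0.22). The KO and WT values did not overlap in either gene, a condition of the rule for the 12 lowest genes. *Serinc3* and *Pkig*, 9969 and 2334 bp from the same peak on an IAPLTR1a_Mm, fell by 1.36 and 0.97.

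*Cnga3*, the cone photoreceptor channel subunit, fell by 1.94, *Pcbp3*, which encodes an RNA-binding protein, by 1.68, *Kng2*, a kininogen, by 1.66 and the Ets factor *Spic* by 1.55. *Stk31*, a germline kinase, fell by 1.49, *1700003M02Rik* by 1.20, *Plekhm3*, an adaptor with PH domains, by 1.18 and *Bcas3* by 1.13. *Bcas3* lies on chromosome 11 and fell by 0.66 with that chromosome's median subtracted. *Cachd1*, *Bcas3* and *1700003M02Rik* also held a peak of the C57BL/6J list only within their span, and for *1700003M02Rik* the peak of both lists was 3475 bp outside it.

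**Figure D5:**
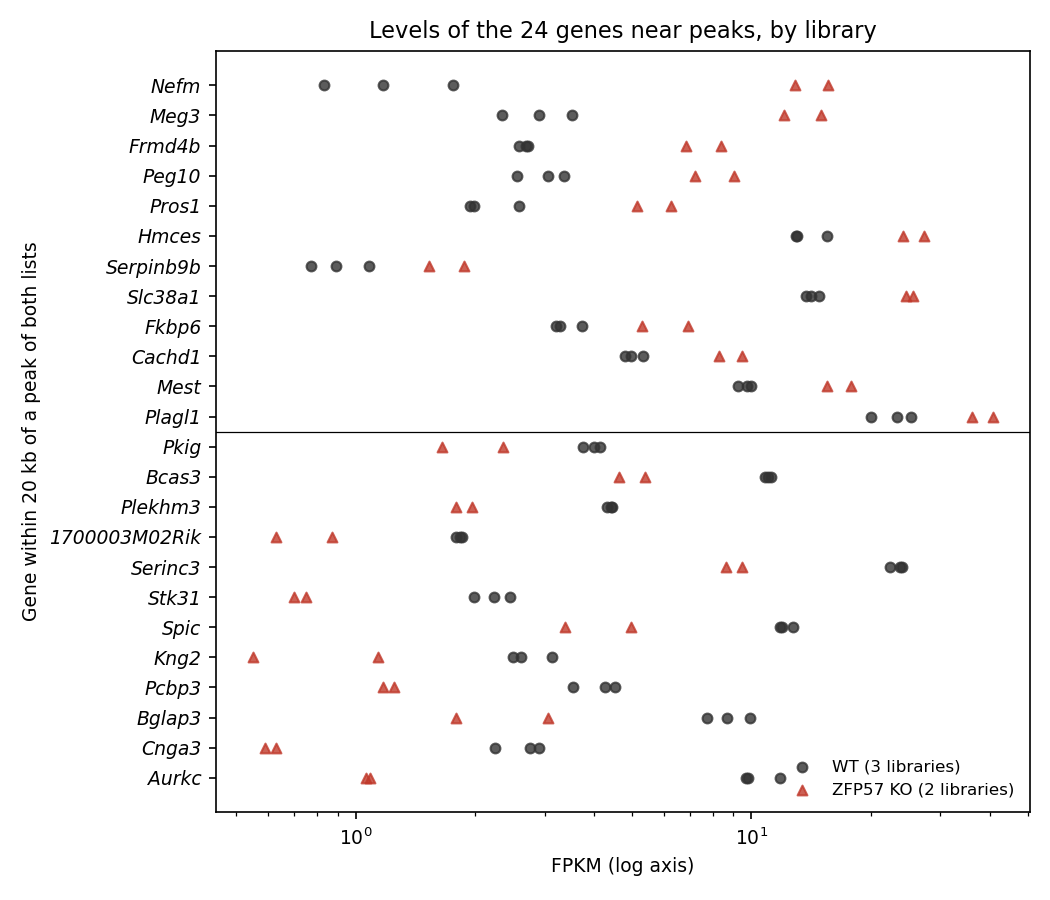
FPKM (log axis) of the 12 genes with the largest rises (above the line) and the 12 with the largest falls (below it) near peaks of both lists, by the rule for naming genes. Points are single libraries, 3 WT (circles) and 2 ZFP57 KO (triangles). By that rule, the KO values lie outside the WT range for every gene shown, as for *Nefm* and *Aurkc*.

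Of 23 tested zinc finger genes near peaks of both lists, 3 rose and 4 fell, none of these by 1 or more on the log2 scale. The called share was 30.4% (15.6 to 50.9%), against 34.6% of all 419 zinc finger genes and 41.1% of all genes tested. *Zfp933*, in the run on chromosome 4, rose by 0.39, *Zfp213* by 0.34 and *Zfp277* by 0.20. *Zfp462*, which encodes a chromatin-bound zinc finger protein and held 3 peaks, fell by 0.34 and *Zfp414* by 0.30. *Zfp286* and *Zfp385c*, both on chromosome 11, fell by 0.72 and 0.66 and did not pass with the chromosome medians subtracted (adjusted p = 0.28 and 0.466). Several of these calls ended when 1 library was left out. *Zfp180*, *Zfp629* and *Zfp13*, with peaks in their last exons, gave log2 fold changes of -0.09, 0.28 and -0.07 and did not pass. Of the other last-exon genes, *Dusp27* fell by 0.73, and *Ezr*, which links actin to the membrane, rose by 0.23 and *Tmem167* by 0.25. *Tmem167* did not pass with the chromosome medians subtracted (0.21, adjusted p = 0.0856) or without any single library (adjusted p = 0.0766 to 0.137).

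Of 16 tested genes of the KAP1 complex and of DNA methylation, 5 rose and 6 fell (68.8%, 44.4 to 85.8%, against 41.1% of all genes), with none of them within 20 kb of a peak of both lists. The 16 genes had a median level of 49.7 FPKM, against 3.87 FPKM over all tested genes, and genes of like level were not compared. The genes that fell include *Zfp57* itself and *Cbx1* on chromosome 11, which fell by 0.59 and gave -0.12 (adjusted p = 0.0824) with the chromosome medians subtracted. *Trim28*, which encodes KAP1, fell by 0.16 and *Dnmt3a*, a de novo DNA methyltransferase, by 1.71, whereas *Setdb1* (-0.01) did not pass.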

How the data were processed

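ZFP57 ChIP-seq and RNA-seq of C57BL/6J ES cells were used. The authors deposited peaks as positions in mm10, called in WT replicates, without score or count, and gene expression as FPKM (fragments scaled for transcript length and library size). The submitters' processing notes name FastQC 0.11.5, Trim Galore 0.2.7, BWA 0.6.2, Picard, MACS2 2.1.0 and STAR 2.5.2, with settings and counting not given in the sources used here. Unique alignment limits which repeats can be called, and strand handling of the counting is unknown.

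Peaks were matched on identical positions and placed on GRCm38 with RefSeq genes by midpoint, in the order promoter (within 1000 bp of a start), exon, intron and intergenic. Elements counted from any overlap. Shares carry Wilson and differences Newcombe 95% intervals, and medians exact binomial intervals. Of 24409 genes, 24261 were placed, and the 14612 genes whose mean reached 0.1 FPKM entered a limma fit of log2 values (pseudocount 0.1 FPKM, trended eBayes, Benjamini-Hochberg adjustment). Fold changes are on that scale and understate low genes. Tested on simulated data of 14612 genes with 200 changed, the ZFP57 KO against WT fit recovered 24.0, 70.0 and 90.0% at log2 changes of 0.5, 1 and 2. In the data 41.1% of genes passed, a setting that the simulation did not cover. Versions were limma 3.58.1 under R 4.3.3, and pandas 2.3.3 and scipy 1.17.1 under Python 3.11.15.

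The members, lists, tests and rules were chosen with earlier results of these data known. Named genes were the 12 highest and 12 lowest called genes within 20 kb of such a peak whose mean reached 1 FPKM, whose span reached 200 bp and whose KO values lay beyond all WT values. The ICR anchors, the called members of the lists, called last-exon genes and genes named in the study were added. *Eomes*, *Tfap2c*, *Sox7*, *Duxf3* and genes given only as positions fall outside this rule. KAP1, H3K9me3 and hybrid libraries were not used here.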

Additional observations from a re-analysis of the deposited data

How the results depend on the processing

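The interval of the difference in TGCCGC share included 0 in the central 200 bp, with 100 bp added to each side, on no listed element, with 1 peak per cluster and with a minimum of 2 copies, where its direction turned (3.54 percentage points). The difference in soft-masked share included 0 when any masked base counted (1.6 points), and the difference in gene overlap excluded 0 among peaks on no listed element (16.7 points). The difference in the share of peaks in zinc finger genes (2.31 points) fell to 1.02 and included 0 without the run on chromosome 4, a setting chosen after seeing the data. The difference in median width rose to 63 bp among peaks on no listed element. In settings also chosen after seeing the data, the difference in other LTRs moved to -0.29 points and that in TGCCGC on them to -14.7 points without RLTR13 peaks, and that in gene overlap on no listed element to 13.1 points without ICR peaks, each with an interval that included 0. The IAP difference fell to 6.40 points without RLTR13 peaks. The IAP difference of 12.3 points fell to 7.81 with 50% of the peak inside the element and 7.94 with the midpoint inside, and stayed above 0 under these rules and with 1 peak per cluster, a setting chosen after seeing the data. Restricting the window to 5 kb around gene starts (20 kb for paternal ICRs) left 15 anchors.

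The 180 called genes near peaks (45.5%, against 41.1% of all genes) became 92 for spans that hold a peak (52.3%) and 333 within 50 kb (43.5%), both against 41.1%, 105 at an adjusted p of 0.01 (26.5% against 22.5%), 32 with a log2 change of 1 or more (8.08% against 8.02%) and 97 with a replicate block (24.5% against 20.6%). Without single libraries they ranged from 127 to 148 (32.1 to 37.4%, against 28 to 32.7%). The WT and KO libraries that share a number did not deviate together (correlations -0.07 and -0.04), so the numbers were not taken as pairs. The cause of the changes in the count of called genes was not tested, apart from the narrower or wider rules themselves.

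Over the named genes, 958 of the values under alternatives kept direction and side of the threshold, 101 no longer passed, 9 newly passed and 6 turned. The latter were *Zrsr1* with chromosome medians subtracted (0.15), *Zfp445* with equal library medians (-0.026) and without WT replicate 2 or KO replicate 1 (-0.019 to 0.029 over the libraries left out), *Setdb1* without WT replicate 2 (-0.045 to 0.0054 over the libraries) and *Ankrd10* without KO replicate 2 (-0.18 to 0.044 over the libraries). The call ended without KO replicate 1 for *Serpinb9b* (adjusted p = 0.0672), without WT replicate 2 for *Impact* (0.0523), without WT replicate 2, WT replicate 3 or KO replicate 1 for *Kcnq1ot1* (0.0549 to 0.0949), without WT replicate 1, WT replicate 3 or KO replicate 1 for *Airn* (0.0617 to 0.075), without WT replicate 1, WT replicate 3 or KO replicate 1 for *Zfp286* (0.0592 to 0.0775), without either KO replicate for *Zrsr1* (0.0605 and 0.0724), and without WT replicate 3 or KO replicate 2 for *Trim28* (0.0553). It ended without each of 4 or more libraries for *Sgce*, *Blcap*, *Zfp213*, *Zfp277*, *Zfp414*, *Zfp385c* and *Tmem167*. The replicate block left 18 named genes without a call.

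Peaks carry no depth, so a missing interval can be a weak one, and differences between the lists cannot be told apart from differences in how they were made. With 3 WT and 2 KO libraries, changes under 1 on the log2 scale were often missed in simulation.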
